A study of Mus musculus with 2 samples.

Results

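The cells described here were venular endothelial cells of healing mouse skin, chosen by their own gene counts as the cells that carried Ackr1, Lrg1, Aplnr and Spint2 without a broad set of inflammatory genes. Among cells with at most 10% mitochondrial UMIs, a cell was called endothelial when it held 3 or more UMIs of Pecam1, Cdh5 and Egfl7 together and at most 2 UMIs of the fibroblast, Schwann cell and pericyte genes Pdgfra, Sox10 and Rgs5. An endothelial cell was then selected when at least 2 of the 4 genes Ackr1, Lrg1, Aplnr and Spint2 were detected, at most 2 of the 6 activation genes Selp, Csf3, Rnd1, Dusp2, Icam1 and Iigp1, and at most 1 of the 5 capillary and arterial genes Rbp7, Gpihbp1, Gja4, Sox17 and Cd300lg. This rule found 56 cells among 884 endothelial cells and 4680 cells in all. Of the 56, 32 came from the control library and 24 from the SM22-SmoM2 library.

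Both libraries were made from the dermis of skin wounds, taken 3 days after wound closure from mice aged 4 to 5 weeks. Control mice carried SM22rtTA, tetO-Cre and R26-Tomato, and the other mice carried SM22rtTA, tetO-Cre and R26-SmoM2/Tomato, in which cells that recombine also express SmoM2, a constitutively active form of the Hedgehog transducer Smoothened. Doxycycline was given to both groups from day 1 after wounding, so that the SM22 alpha (Tagln) promoter could switch on Cre, and Tomato+ dermal cells were sorted before droplet capture. The sort was meant to take only cells in which this promoter had been active, and there was 1 library per condition, so no difference between conditions could be tested. UMIs of Xist and of Y-linked genes were both present in each library, which puts at least 1 male and 1 female animal in each pool.

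Postcapillary venules are the vessels through which plasma proteins and leukocytes mainly leave the blood. Their endothelium displays chemokines on the atypical receptor Ackr1, stores P-selectin (Selp) for rapid exposure, and forms fenestral diaphragms from Plvap. Inflammatory cytokines drive these cells through NF-kB to express adhesion molecules such as Icam1 and chemokines, and NF-kB in turn induces its own inhibitors. Capillary endothelium instead carries Cd300lg and the lipid-handling protein Gpihbp1, and arterial endothelium carries Sox17, Gja4 and Notch targets.

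The venular cells formed 5.11% of the endothelial cells in control (exact binomial 95% interval 3.52 to 7.14) and 9.30% in SM22-SmoM2 (6.05 to 13.5). Of all cells kept they were 1.12% and 1.34%. Among cells called male from Y-linked UMIs the shares of endothelial cells were 3.75% and 5.51%, and among cells called female from Xist 4.29% and 15.3%. The intervals given throughout are 95% intervals for counting error alone and contain nothing of the spread between animals or libraries. The remaining endothelial cells were grouped by the same genes. Those with 3 or more activation genes are called activated (418 control and 151 SM22-SmoM2 cells), those with fewer activation genes but 2 or more capillary and arterial genes are called capillary-arterial (141 and 40 cells), and the rest were left unplaced (35 and 43 cells).

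The selected cells were shallow. The libraries held 30103855 UMIs in 2856 control cells (median 8607.5 per cell) and 17814222 UMIs in 1792 SM22-SmoM2 cells (median 8837.5). The members' median was 4667 UMIs per cell in control and 4139 in SM22-SmoM2, against 9782.5 and 7732 in activated cells and 7083 and 5235.5 in capillary-arterial cells. The rule counts detected genes, and detection depends on depth, so the rule was also applied after cells had been thinned at random to 3000 UMIs. Cells with fewer UMIs were left out, which took 73 SM22-SmoM2 cells, 3 members among them, and no control cells. The venular share was then 14.9% of endothelial cells in control (92 cells) and 20.9% in SM22-SmoM2 (45 cells). Among these, 50 control and 25 SM22-SmoM2 cells had been called activated at full depth. Of the original members deep enough to be thinned, 26 of 32 and 16 of 21 were kept. The share of the venular class thus changed with the depth at which the rule was applied. For many, but not all, of the genes named later the value at equal depth is given as well. Levels and log2 ratios at equal depth are those of the 92 and 45 cells chosen again, of which only 26 and 16 were members.

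The venular genes themselves hardly separated these cells from the activated ones. At least 2 of the 4 genes were detected in 383 of 418 activated control cells (91.6%) and 121 of 151 activated SM22-SmoM2 cells (80.1%). All activated cells were past the limit on activation genes, but they also held more capillary and arterial genes. They had a mean of 2.27 of these 5 genes in control and 1.85 in SM22-SmoM2, against 0.5625 and 0.625 in members. The activated group was thus a mixture that included cells with capillary and arterial genes. Cells just past 1 limit of the rule, but within its other limits, were set beside the members at that limit. The 35 such control cells with 3 activation genes held 1433 CPM (UMIs per 1000000 UMIs of the cells summed) of the NF-kB inhibitor Nfkbia, and the 21 members with 2 activation genes held 634 CPM. In SM22-SmoM2 the same cells held 1391 CPM (20 cells) and 821 CPM (12 cells). Such cells with only 1 venular gene were unplaced cells and were different in another way. Their Plvap stood at 251 CPM in control (18 cells) and 156 CPM in SM22-SmoM2 (8 cells), against 1669.9 and 1409 CPM in the members with 2 venular genes. Of all unplaced cells, 24 of 35 in control and 35 of 43 in SM22-SmoM2 had over 1% of UMIs from a list of 12 fibroblast genes. Across the limit on capillary and arterial genes, the tight junction gene Cldn5 stood at 336 CPM in the 19 control cells with 2 of these genes and within the other limits. It stood at 178 CPM in the 18 members with 1, and at 205 and 214 CPM in SM22-SmoM2.

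RNA of fibroblasts was carried by 3 of the 56 members. A control cell with 17608 UMIs had 5.15% of them from a list of 12 fibroblast genes, and 2 SM22-SmoM2 cells with 14879 and 11062 UMIs had 1.75% and 1.69%. In every other member the share was at most 0.492%. These cells had passed the limit on Pdgfra and were the deepest of their libraries' members, so they weigh heavily in summed counts. The control cell alone held 82.4% of the members' UMIs of the collagen gene Col3a1 in its library, and results that rest on these cells are given with and without them.

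**Figure D1:**
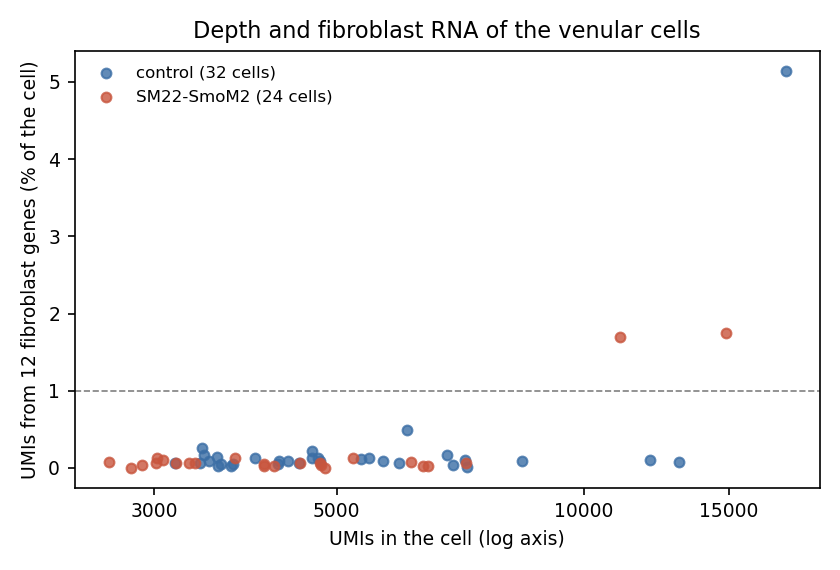
UMIs in each of the 56 venular cells (horizontal log axis) against the percentage of its UMIs from 12 fibroblast genes (vertical axis), coloured by library, with a dashed line at 1%. A control cell and 2 SM22-SmoM2 cells lie above the line, and all others lie below 0.492%.

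The 12 fibroblast genes summed to 1087 UMIs (5934 CPM) in the 32 control members and 503 UMIs (4201 CPM) in the 24 SM22-SmoM2 members, and to 181 and 56 UMIs without the 3 cells. Genes of other cell types had few UMIs, but not evenly. Mural cell genes, of which 5 of 12 and 3 of 12 were detected, summed to 42 and 8 UMIs, most of it Mustn1 (33 and 6 UMIs), while the pericyte and smooth muscle genes Cspg4, Kcnj8, Abcc9 and Myh11 were at 0 in both libraries. Schwann cell genes gave 42 and 7 UMIs, and 41 and 0 without the 3 cells. The venular cells chosen again at equal depth were compared too, of which only 26 of 92 in control and 16 of 45 in SM22-SmoM2 were members. In control their Schwann cell list was above activated cells by a log2 ratio of 0.75 (0.28 to 1.20) and above capillary-arterial cells by 2.10 (1.45 to 2.79). Their mural list was above by 0.34 (-0.15 to 0.81) and 0.60 (0.06 to 1.14). In SM22-SmoM2 their mural list was above capillary-arterial cells by 1.54 (0.31 to 2.93) and their fibroblast list by 0.71 (0.35 to 1.07). Their erythroid and platelet list was above activated cells by 1.98 (0.30 to 3.88). The fibroblast list went the other way in control, at -0.48 (-0.68 to -0.28) against capillary-arterial cells and -0.22 (-0.42 to -0.03) against activated cells. From control to SM22-SmoM2 members the Schwann list differed by -1.97 (-3.37 to -0.80) and the mural list by -1.78 (-3.08 to -0.67). At equal depth the Schwann list was at 228 and 29.6 CPM and the mural list at 192 and 156 CPM in control and SM22-SmoM2. The part of these lists in the comparisons below was not tested. Immune genes gave 4 and 2 UMIs, keratinocyte genes 6 and 4, and erythroid and platelet genes 3 and 3. Lymphatic endothelial genes gave 11 UMIs in each library, led by Flt4 in control and Sned1 in SM22-SmoM2, and Prox1, Lyve1 and Mmrn1, which define lymphatic endothelium, were at 0 in both. Scrublet, which scores simulated doublets, marked 0 control members and 1 SM22-SmoM2 member, but it marked only 6 of 2856 (0.21%) and 10 of 1792 (0.558%) cells in all. Calls this few are no measure of doublets, and no cell was removed for them.

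The genes that chose the members are described first. Ackr1 (chr1:173331886-173333750, minus strand, GRCm38), the venular chemokine-binding receptor, was at 524 CPM (425 to 640.0) in control members and 509 CPM (389.7 to 654) in SM22-SmoM2 members, from 96 and 61 UMIs. In activated cells it was at 296 and 236 CPM, and in capillary-arterial cells at 30.4 and 33.9 CPM. Among the members themselves Ackr1 was uneven. It was detected in 20 of 32 control cells, with a median of 209 and a highest value of 3916 CPM, and in 13 of 24 SM22-SmoM2 cells, with a median of 196 and a highest value of 1982 CPM.

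Lrg1 (chr17:56119678-56122001, minus strand), a secreted glycoprotein that modifies TGF-beta signalling in endothelium, was at 1338 CPM (1175 to 1516) in control members and 1319.7 CPM (1122 to 1542) in SM22-SmoM2 members. Activated SM22-SmoM2 cells held as much of it (1365 CPM), whereas activated control cells held 967 CPM. Aplnr (chr2:85136225-85139923, plus strand), the apelin receptor of venous and sprouting endothelium, was at 420.4 CPM (332 to 525) and 376 CPM (274 to 503), and at 195 and 292 CPM in capillary-arterial cells. Spint2 (chr7:29256323-29281912, minus strand), a Kunitz-type inhibitor of serine proteases, was at 399 CPM (312 to 501) in control and 209 CPM (135 to 308) in SM22-SmoM2 members, and was detected in 29 of 32 and 15 of 24 cells. Its log2 ratio of SM22-SmoM2 over control was -0.93 (-1.65 to -0.26), and -0.78 (-1.52 to -0.10) without the 3 cells with fibroblast RNA.

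The genes that the rule limits were not absent. Icam1, the leukocyte adhesion molecule, was at 207 CPM (147 to 285) and 184 CPM (115 to 278) in members against 523 and 429.6 CPM in activated cells, and was detected in 16 of 32 and 8 of 24 members. Iigp1, an interferon-induced GTPase, was at 267 CPM (198 to 354) and 342 CPM (246 to 465) against 909.8 and 705 CPM, in 19 of 32 and 14 of 24 members. P-selectin (Selp) was at 54.6 and 83.5 CPM against 279.6 and 178 CPM. Only 2 members in each library had none of the 6 activation genes, and 21 of 32 and 12 of 24 had 2, the most the rule allows. These genes were limited by the rule, so that their lower levels were fixed by the selection. Of the capillary and arterial genes, Gja4, an arterial connexin, had 0 UMIs in both libraries, Sox17, an arterial transcription factor, 1 and 7 UMIs, and Gpihbp1, which anchors lipoprotein lipase, was at 169 and 159 CPM.

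Plvap (chr8:71497765-71511752, minus strand) was not part of the rule. It had been named as a marker of these cells with earlier results of these data known, so it is no independent check on the label. It was at 2364 CPM (2146 to 2597) in control members and 1679 CPM (1455 to 1928) in SM22-SmoM2 members, and it was detected in 31 of 32 and 24 of 24 cells. In control this was above the level in activated (1689 CPM) and capillary-arterial cells (1616 CPM). In SM22-SmoM2 the levels of the 3 groups lay between 1679 and 1856 CPM, and the log2 ratio of members to activated cells was -0.01 (-0.22 to 0.20). After thinning to 3000 UMIs and choosing the cells again, Plvap was higher in the venular cells than in activated cells by a log2 ratio of 0.36 (0.22 to 0.50) in control and 0.61 (0.39 to 0.84) in SM22-SmoM2. Against capillary-arterial cells the equal-depth ratios were 0.17 (0.02 to 0.31) and 0.18 (-0.06 to 0.41), so Plvap hardly separated the venular cells chosen again from those cells.

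**Figure D2:**
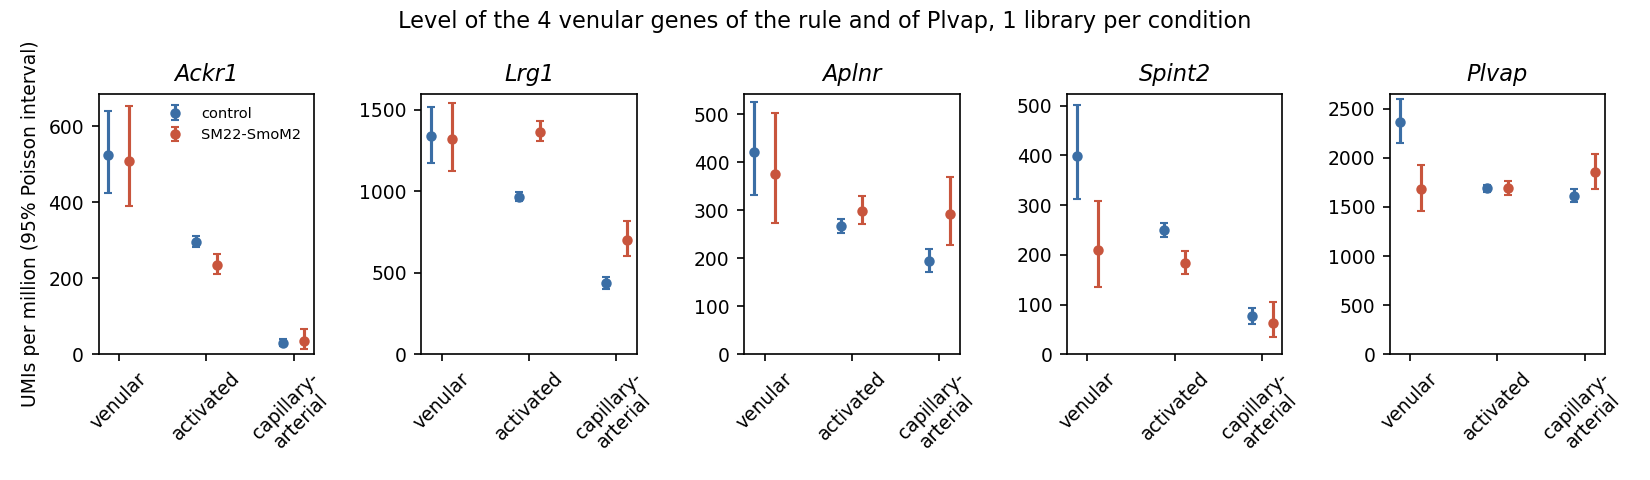
Level of Ackr1, Lrg1, Aplnr, Spint2 and Plvap (CPM, vertical axes starting at 0) in venular, activated and capillary-arterial cells of the control and SM22-SmoM2 libraries, with exact Poisson 95% intervals. Ackr1 is at 524 and 509 CPM in venular cells and at 30.4 and 33.9 CPM in capillary-arterial cells, while Plvap differs between the groups less than 2-fold.

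Shares of cells with a UMI were compared after thinning because of the depth difference. Ackr1 was found in 43.8% of venular, 37.3% of activated and 6.38% of capillary-arterial control cells, and before thinning in 62.5%, 57.2% and 11.3%. In SM22-SmoM2 the thinned shares were 42.9%, 32.7% and 8.11%, against 54.2%, 45.03% and 10% before. As a background for free RNA, cells with 3 or more UMIs of the fibroblast gene Pdgfra and at most 2 of the endothelial genes, with medians of 14501 and 12392.5 UMIs, showed Ackr1 in 0% and 0.671% of cells after thinning. The other venular genes were likewise near 0 there, and Plvap reached 7.14% and 1.34% of Pdgfra cells.

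Pecam1, Cdh5 and Egfl7 helped to choose the cells, so their levels describe the selection. Pecam1, an adhesion molecule of endothelial junctions, was at 912 CPM in control members and 1014 CPM in activated cells, and lower in SM22-SmoM2 members, at 659.8 against 857 CPM, a log2 ratio of -0.38 (-0.72 to -0.05). VE-cadherin (Cdh5) was at 529.5 and 585 CPM in members and 632 and 559 CPM in activated cells. Egfl7, a secreted endothelial matrix protein, was at 1621 and 1771 CPM in members and 1677 and 1618 CPM in activated cells. Egfl7 was found in all 32 and all 24 members.

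A comparison of the members with all other endothelial cells counted 121 of 8425 genes (1.44%) as 2-fold or more higher in both libraries and 191 (2.27%) as 2-fold or more lower. The 8425 genes had 20 or more UMIs in each library, counting both groups of cells. Because the members had been chosen by expression in the same cells, these counts only describe the selection. With cells thinned to 3000 UMIs and chosen again, 1 gene was higher and 69 were lower, and 0 and 26 of these were among the genes counted at full depth. Against activated cells alone, 51 of 7059 genes (0.722%) were higher and 209 (2.96%) lower, and against capillary-arterial cells 22 of 2728 (0.806%) were higher and 72 (2.64%) lower. The median log2 ratio over all genes was between -0.11 and 0.03 in these comparisons.

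Venous genes outside the rule were compared next, and 0 of 14 tested against activated cells were 2-fold higher in both libraries, beside 0.722% of all genes. Nr2f2, which encodes the transcription factor COUP-TFII that specifies veins, was at 186 CPM in control members and 117 CPM in SM22-SmoM2 members. In activated cells it was similar (164 and 128 CPM), with log2 ratios at equal depth of 0.18 (-0.33 to 0.68) and -0.14 (-1.06 to 0.73). In capillary-arterial cells it was lower (57.6 and 59.3 CPM), with log2 ratios of members over capillary-arterial cells of 1.69 (1.06 to 2.29) and 0.98 (-0.20 to 2.16). Il6st, the shared receptor subunit gp130 of the interleukin-6 family, was also above capillary-arterial cells, by 0.94 (0.53 to 1.33) and 1.24 (0.43 to 2.07). Emcn, a sialomucin of veins and capillaries, was at 1458 CPM in control members against 719 CPM in capillary-arterial cells, but at 885 against 958 CPM in SM22-SmoM2. Vwf, the von Willebrand factor of endothelial storage granules, was at 240.2 and 200.5 CPM, against 296 and 257 CPM in activated cells.

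Summed over the 15 venular and venous genes outside the rule, control members held 5323 CPM and SM22-SmoM2 members 3558 CPM, and capillary-arterial cells 3143 and 3552 CPM. The log2 ratio was 0.76 (0.66 to 0.86) in control and 0.003 (-0.17 to 0.17) in SM22-SmoM2. Without the cells with fibroblast RNA it was 0.82 (0.71 to 0.92) and 0.26 (0.09 to 0.44), and at equal depth 0.57 (0.48 to 0.67) and 0.42 (0.25 to 0.58). None of the 8 genes with enough UMIs was 2-fold higher in both libraries, where the share among all genes was 0.806%. The venous excess of the members over capillary-arterial cells was thus below 2-fold in sum, and whether it differed between the libraries was not tested.

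Arterial genes outside the rule were lower in sum in members than in capillary-arterial cells. At equal depth the summed log2 ratio was -1.03 (-1.19 to -0.87) in control and -0.51 (-0.75 to -0.26) in SM22-SmoM2, the latter short of 2-fold. Cxcl12, a chemokine of arterial endothelium, was at 43.7 CPM (18.9 to 86.1) and 66.8 CPM (28.8 to 132) in members and at 892 and 1098 CPM in capillary-arterial cells. The log2 ratios were -4.35 (-5.57 to -3.37) and -4.04 (-5.27 to -3.04), and after thinning and new selection -3.72 (-4.49 to -3.04) and -3.99 (-5.34 to -2.91). Thinned cells with a Cxcl12 UMI were 12.5% of venular and 62.4% of capillary-arterial control cells, and 34.1% of the Pdgfra cells, which express it themselves. Gja5, Bmx, Sema3g and Unc5b, further arterial genes, had 0 UMIs in members of both libraries, Hey1 had 2 and 1 UMIs and Efnb2 had 1 and 2. Of 9 arterial genes tested against capillary-arterial cells, 4 were 2-fold lower in both libraries and 0 higher, where 2.64% of all genes were lower and 0.806% higher.

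Cldn5, the main claudin of endothelial tight junctions, was lower too, at 115 CPM in control members against 1693 CPM in capillary-arterial cells, and at 234 against 602 CPM in SM22-SmoM2. Its log2 ratios were -3.88 (-4.58 to -3.27) and -1.36 (-2.004 to -0.77), and at equal depth -2.90 (-3.36 to -2.47) and -1.27 (-1.95 to -0.63). Rgcc, a regulator of the cell cycle, was lower, with log2 ratios of -2.50 (-3.12 to -1.94) and -2.48 (-3.13 to -1.88), and at equal depth of -1.07 (-1.38 to -0.76) and -0.74 (-1.16 to -0.32). The scaffold gene Slc9a3r2 and the VEGF receptor gene Kdr had log2 ratios of -1.65 (-2.09 to -1.25) and -1.09 (-1.62 to -0.61) in control, and of -1.29 (-1.82 to -0.79) and -1.38 (-2.13 to -0.70) in SM22-SmoM2. These were among the 4 of 9 capillary genes that were 2-fold lower in both libraries at full depth, beside the same 2.64% of all genes. Fabp4, the fatty acid-binding protein of capillary endothelium and adipocytes, went the other way, at 5372 CPM in members against 2960.5 CPM in capillary-arterial cells. In SM22-SmoM2 it was at 1319.7 and 983 CPM, and at equal depth the log2 ratios were 0.63 (0.53 to 0.73) and 0.53 (0.26 to 0.80). The capillary list with Fabp4 in it had summed ratios at equal depth of 0.20 (0.13 to 0.28) in control and -0.02 (-0.16 to 0.12) in SM22-SmoM2.

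The inhibitors that NF-kB induces were lower in members than in activated cells. Nfkbia, which encodes IkB-alpha, was at 628 CPM (518 to 754) in control members and 709.9 CPM (567 to 878) in SM22-SmoM2 members. Activated cells held 2037 and 1915 CPM and capillary-arterial cells 624 and 547 CPM. The log2 ratios of members to activated cells were -1.70 (-1.98 to -1.43) and -1.43 (-1.76 to -1.12), and at equal depth -1.60 (-1.80 to -1.41) and -1.11 (-1.37 to -0.86). In the venular cells chosen again at equal depth, Nfkbia differed from capillary-arterial cells by 0.01 (-0.22 to 0.24) in control and 0.67 (0.31 to 1.03) in SM22-SmoM2. Of those 45 SM22-SmoM2 cells, 25 had been called activated at full depth and only 16 were members. Nfkbia is found in most cell types, and 63.5% and 48.3% of thinned Pdgfra cells had a UMI of it.

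Socs3, a feedback inhibitor of cytokine receptors, was at 153 and 242 CPM in members and 490.1 and 509.8 CPM in activated cells, with log2 ratios of -1.68 (-2.27 to -1.15) and -1.07 (-1.66 to -0.54). At equal depth the ratios were -1.35 (-1.71 to -1.001) and -0.69 (-1.12 to -0.27). Nfkbiz and Nfkb1, an atypical inhibitor and a precursor subunit of NF-kB, had log2 ratios of -1.58 and -2.13 in control and -1.34 and -1.26 in SM22-SmoM2. Tnfaip3, the deubiquitinase A20, had 1 and 0 UMIs. Of the 12 NF-kB feedback genes, 6 were 2-fold lower in members in both libraries and 0 higher, where 2.96% of all genes were lower. Their summed log2 ratio was -1.68 (-1.90 to -1.48) in control and -1.28 (-1.52 to -1.05) in SM22-SmoM2, and -1.48 (-1.63 to -1.34) and -0.97 (-1.17 to -0.79) at equal depth. Icam1 and the other activation genes had divided members from activated cells, so this count and these ratios only describe the selection. Against capillary-arterial cells the sum in the venular cells chosen again at equal depth differed by 0.09 (-0.08 to 0.27) and 0.62 (0.36 to 0.89).

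Chemokine genes were also lower in members than in activated cells, which again only describes a selection made on inflammatory genes. Cxcl1, which attracts neutrophils, was at 98.3 CPM (58.2 to 155) in control members and 109 CPM (57.8 to 186) in SM22-SmoM2 members, against 276 and 667 CPM in activated cells. Capillary-arterial cells held 94.2 and 84.8 CPM. For the venular cells chosen again at equal depth, the log2 ratios to capillary-arterial cells were 0.69 (0.08 to 1.29) and 0.93 (-0.08 to 1.99). Cxcl10, an interferon-induced T-cell chemokine, was at 49.1 and 41.8 CPM in members and 217 and 246 CPM in activated cells. Cxcl2 had 3 and 2 UMIs in members and Ccl2, which attracts monocytes, 4 and 3 UMIs. Of 10 chemokine and cytokine genes, 4 were 2-fold lower than in activated cells in both libraries and 0 higher, against 2.96% and 0.722% of all genes. The summed log2 ratio was -1.65 (-2.05 to -1.28) and -2.02 (-2.47 to -1.60), and at equal depth -1.38 (-1.66 to -1.11) and -1.72 (-2.17 to -1.29).

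Interferon-induced genes split. Isg15, a ubiquitin-like protein, was at 355 and 451 CPM in members against 945 and 905 CPM in activated cells, and Irf7, which amplifies the interferon response, at 147 and 150.3 against 493 and 363 CPM. At equal depth the log2 ratios of Isg15 were -0.95 (-1.20 to -0.71) and -0.96 (-1.31 to -0.61), and those of Irf7 -0.22 (-0.54 to 0.09) and -0.60 (-1.19 to -0.04), both short of 2-fold. Ifitm3, an antiviral membrane protein found in all members, was instead at 5656 and 5371 CPM in members and 5206 and 5347 CPM in activated cells. Of the 19 genes of the list, 7 were 2-fold lower in both libraries and 0 higher, beside 2.96% of all genes lower and 0.722% higher. Since Ifitm3 makes up much of the sum, the summed ratio was only -0.27 (-0.35 to -0.20) and -0.28 (-0.37 to -0.18), and -0.12 (-0.18 to -0.06) and -0.35 (-0.45 to -0.26) at equal depth. Iigp1, an activation gene of the rule, is itself interferon-induced.

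Immediate early genes, which respond within minutes to many stimuli and to tissue dissociation, were also lower in part. Junb was at 1119 and 1470.0 CPM in members and 2467 and 2703 CPM in activated cells, with log2 ratios of -1.14 (-1.35 to -0.94) and -0.88 (-1.10 to -0.66) and, at equal depth, -1.05 (-1.20 to -0.90) and -0.67 (-0.86 to -0.48). Fos did not follow, at 1234 and 1328 CPM in members and 1251 and 1453 CPM in activated cells. Of 18 genes of the list, 3 were 2-fold lower in both libraries, beside 2.96% of all genes. Whether dissociation had a part in this difference was not tested.

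**Figure D3:**
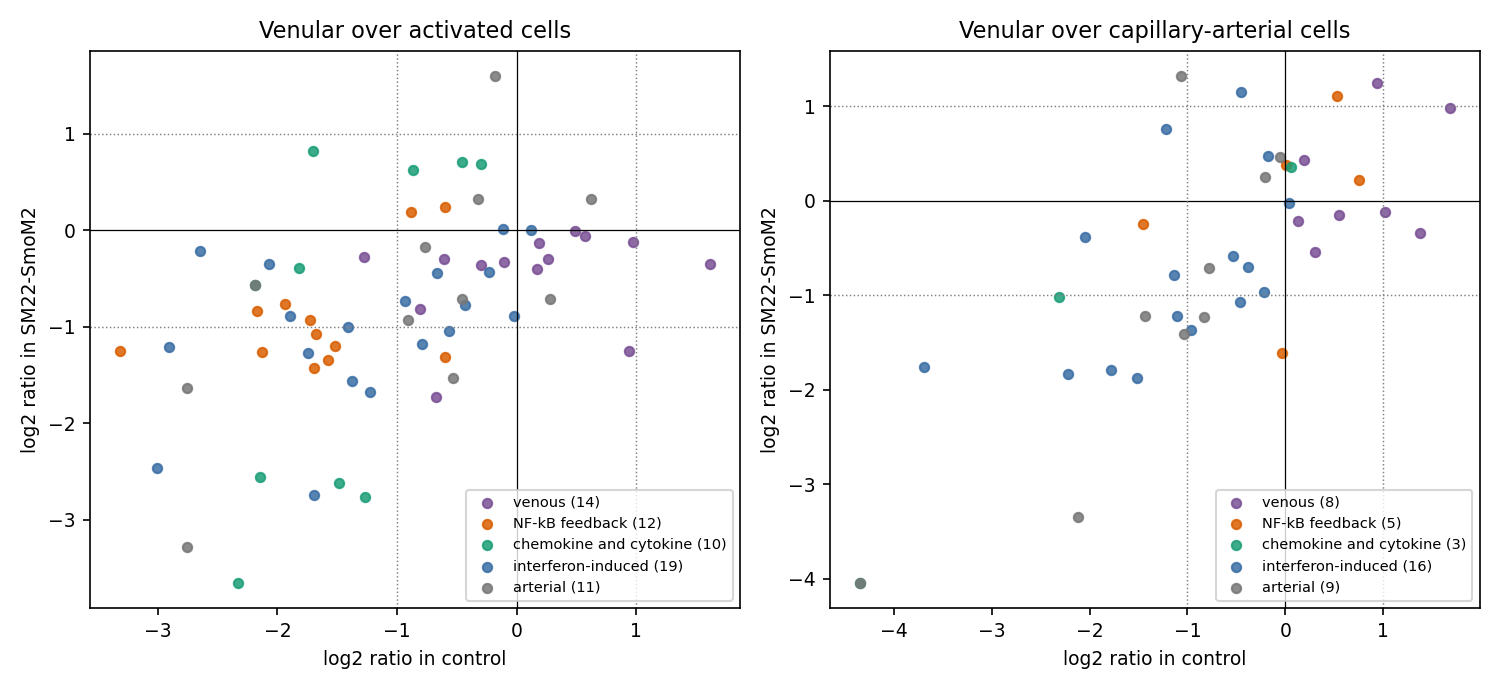
Log2 ratio of venular cells over activated cells (left) and over capillary-arterial cells (right) for single genes of 5 lists, with the control library on the horizontal and the SM22-SmoM2 library on the vertical axis, the number of genes in brackets, and dotted lines at 2-fold. Against activated cells 6 of 12 NF-kB feedback genes lie below -1 on both axes, and none lies above 1, while against capillary-arterial cells 4 of 9 arterial genes lie below -1 on both.

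Among the BMP and TGF-beta genes, Smad7, the inhibitory Smad, was almost undetected in members. They had only 3 and 2 UMIs of Smad7, which is 16.4 and 16.7 CPM, while activated cells held 269 and 252 CPM and capillary-arterial cells 89.5 and 80.5 CPM. The log2 ratios to activated cells were -4.04 (-6.32 to -2.49) and -3.92 (-6.97 to -2.05). At equal depth they were -2.11 (-2.81 to -1.49) and -1.31 (-2.04 to -0.64), which is nearer to 0 in both libraries. Against capillary-arterial cells the equal-depth ratio was -0.79 (-1.54 to -0.08) in control and changed sign in SM22-SmoM2, at 0.70 (-0.31 to 1.76). This SM22-SmoM2 ratio rests on 22 UMIs in the cells chosen again, where the members had 2. Id1 and Id3, direct targets of BMP receptors in endothelium, were lower as well. Id1 was at 300.3 and 301 CPM against 874 and 797 CPM, and Id3 at 677 and 969 against 1688 and 1867 CPM. At equal depth Id1 differed by -1.15 (-1.44 to -0.88) and -1.27 (-1.67 to -0.89) and Id3 by -0.80 (-0.98 to -0.62) and -0.62 (-0.85 to -0.39). Eng, the co-receptor endoglin, showed 682 and 509 CPM in members and 544 and 528 CPM in activated cells, and of the 16 genes tested 2 were 2-fold lower in both libraries and 0 higher, where the shares of all genes were 2.96% and 0.722%.

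For each direction, 12 genes were named by how far from 0 the nearer bound of their ratio to all other endothelial cells lay in both libraries. Of those higher in members, Fabp5, a fatty acid-binding protein, was at 475 CPM in control members against 231 CPM in activated cells, and at 284 against 138 CPM in SM22-SmoM2. Its log2 ratio at equal depth was 0.94 (0.60 to 1.29) and 1.05 (0.12 to 1.99). Fabp5 was found in 9 of 24 SM22-SmoM2 members, 1 of which held 44.1% of its UMIs, and was at 168 CPM without that cell. Fabp4, which is not among the 12, had log2 ratios at equal depth of 0.72 (0.63 to 0.82) and 0.79 (0.55 to 1.04). Male SM22-SmoM2 members had 0 UMIs of Fabp5, where a floor of 3 UMIs allows a log2 ratio to other endothelial cells of at most -0.82. Cd9, a tetraspanin found in all members, was at 2276 and 1921 CPM against 1179 and 1214 CPM. Its log2 ratios at equal depth were 0.42 (0.26 to 0.58) and 0.78 (0.51 to 1.05). Ramp2, the adrenomedullin co-receptor, was at 884 and 743 against 578 and 554 CPM. Meox2, a homeobox factor that restrains endothelial growth, was at 311 and 242 against 169 and 126 CPM, but at equal depth its log2 ratio was 0.54 (0.12 to 0.95) in control and -0.16 (-1.02 to 0.65) in SM22-SmoM2. Angpt2, a Tie2 ligand that destabilizes vessels, rested on 18 and 13 UMIs in members, at 98.3 and 109 CPM against 58.5 and 46.1 CPM. At equal depth its log2 ratios were 0.24 (-0.54 to 0.97) and 0.76 (-0.48 to 1.98), intervals that include 0, and in male SM22-SmoM2 cells its ratio to other endothelial cells was -0.84, from 1 UMI in members. The caveolar gene Sdpr was at 666 and 418 CPM against 466 and 279 CPM, and Plvap, Isyna1, Tmem176b, Cox6a1, Hnrnpk and Tmsb4x completed the 12.

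The 12 genes named for lower levels included the lymphoid chemokine Ccl21a, with 1 UMI in control and 0 in SM22-SmoM2 members, which has near-identical copies that share reads, and Cd74, the invariant chain of MHC class II, with 6 and 0 UMIs. In activated cells Cd74 was at 305 and 172 CPM. The class II genes H2-Aa and H2-Ab1 were near 0 in members (2 and 0 UMIs, and 3 and 1 UMIs). Class I genes did not show this, with log2 ratios to activated cells of -0.15 and -0.13 for H2-D1 and -0.06 and -0.17 for B2m. Rsad2 (3 and 0 UMIs), Gpx3 (0 and 4), Ahcyl2 (7 and 1) and the cell cycle inhibitor gene Cdkn1a (9 and 5) also had single or few UMIs in members, so their ratios are known to within several fold at best.

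In 5 further lists no gene was counted. None of the 15 leukocyte adhesion genes outside the rule, 15 caveolar, fenestral and junction genes, 12 shear-responsive genes, 10 G-protein-coupled receptor genes or 8 VEGF and angiopoietin receptors tested was 2-fold higher or lower than in activated cells in both libraries. As only 0.722% of all genes were higher and 2.96% lower, nothing is read from these counts. Klf2, a factor induced by flow, was at 300.3 and 326 CPM in members and 736 and 557 CPM in activated cells, which is past 2-fold in control alone. At equal depth its log2 ratios were -0.38 (-0.63 to -0.14) and -0.02 (-0.43 to 0.39), both short of 2-fold. Flt1, the decoy VEGF receptor, was at 240.2 and 184 against 434 and 393 CPM. Aqp1, a water channel, was at 1425 and 1219 CPM in members against 1244 and 1491 CPM, and Apln, the ligand of Aplnr, at 158 against 155 CPM in control.

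The comparison of SM22-SmoM2 with control asks what active Smoothened changed in these wounds, and here it stands on 24 and 32 cells of 1 library each. Of 845 genes with 50 or more UMIs over both libraries, 19 (2.25%) were 2-fold or more higher in SM22-SmoM2 members and 32 (3.79%) were 2-fold or more lower. Without the 3 cells with fibroblast RNA, 7 (0.987%) were higher and 19 (2.68%) lower of 709. With cells thinned to 3000 UMIs and chosen again, 4 genes were higher and 23 lower, of which 3 were among the 19 and 2 among the 32. This left out 73 shallower SM22-SmoM2 cells, 3 of the 24 members among them, and no control cells. Genes for which the 3 cells with fibroblast RNA mattered were told apart first, from how their UMIs spread over the cells. Nearly all UMIs of the fibroblast gene Igfbp6 (98.1%), and most of those of Lum (81.8%) and Gsn (86.8%), lay in 1 control cell, and without the 3 cells the log2 ratios of Lum and Gsn were -1.99 (-5.17 to 0.13) and -1.35 (-4.60 to 0.92). In SM22-SmoM2, 89.8% of the imprinted gene Mest, 83.3% of the heat shock gene Hspa1a and 75% of the nucleolar gene Nop58 lay in 1 cell.

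Fabp4 (chr3:10204088-10208576, minus strand) was lower in SM22-SmoM2 members. It was at 5372 CPM (5041 to 5718) in control members and 1319.7 CPM (1122 to 1542) in SM22-SmoM2 members, from 984 and 158 UMIs, a log2 ratio of -2.03 (-2.28 to -1.78). It was detected in 28 of 32 control cells, with a median of 4318 CPM, and in 19 of 24 SM22-SmoM2 cells, with a median of 1040.2 CPM. The highest cells reached 15504 and 6938 CPM, so the per-cell ranges overlapped. Without the cells with fibroblast RNA the log2 ratio was -1.96 (-2.23 to -1.71). With cells thinned to 3000 UMIs and chosen again it was -1.37, in male cells alone -3.89 and in female cells alone -1.32. Other endothelial cells differed in the same direction, by -1.26 (-1.32 to -1.20).

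Hes1, a transcriptional repressor induced by Notch and other pathways, was higher in SM22-SmoM2 members. It was at 748 CPM (628 to 884) in control and 1579 CPM (1362 to 1820.4) in SM22-SmoM2 members, and was detected in 19 of 32 and 23 of 24 cells, with medians of 241 and 950.2 CPM. The log2 ratio was 1.08 (0.75 to 1.41), without the cells with fibroblast RNA 0.89 (0.48 to 1.30), and in other endothelial cells 0.56 (0.50 to 0.61). With cells thinned and chosen again it was 0.51, and in female cells alone 2.18. After thinning, 53.1% of control members and 90.5% of the 21 SM22-SmoM2 members deep enough had a Hes1 UMI. In Pdgfra cells the shares were 70.6% and 83.9%, so its presence was not particular to endothelium. The early response gene Ier3 was at 366 and 902 CPM, a log2 ratio of 1.30 (0.85 to 1.76), which was 0.69 (0.12 to 1.25) without those cells, 0.69 at equal depth and 0.17 (0.10 to 0.24) in other endothelial cells.

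Ifi27l2a, an interferon-induced mitochondrial protein, had 11 UMIs in control and 40 in SM22-SmoM2 members, a log2 ratio of 2.48 (1.49 to 3.59). Only 5 of 24 SM22-SmoM2 cells carried it, however, and 1 cell held 52.5% of its UMIs. With cells thinned and chosen again the ratio was 0.78, and in female cells alone -0.78. Without the 3 cells the log2 ratio was 2.71 (1.47 to 4.16), and in other endothelial cells 0.32 (0.14 to 0.49). The growth arrest gene Gadd45g (1.71), the tubulin gene Tuba1b (1.40), the chromatin gene Cbx3 (1.65) and Stmn1 (1.61), which destabilizes microtubules, were likewise more than 2-fold higher in all members (log2 ratios). Without the 3 cells their log2 ratios were 0.21 (-0.46 to 0.86), 0.38 (-0.38 to 1.12), 0.74 (-0.31 to 1.78) and 0.54 (-0.59 to 1.65), each with an interval that includes 0. Mest, Nop58 and Hspa1a came to -0.32 (-2.19 to 1.32), 0.44 (-0.91 to 1.75) and -2.22 (-4.18 to -0.73) without them.

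Further genes were lower in SM22-SmoM2 members with and without the 3 cells. Of the 11 caveolar, fenestral and junction genes tested 1 was 2-fold lower, where 3.79% of all genes were, and their median log2 ratio was -0.50 in members and -0.52 in other endothelial cells. Ptrf, which encodes the caveolar coat protein cavin-1, was at 338 and 117 CPM, a log2 ratio of -1.53 (-2.49 to -0.68). Mmrn2, an endothelial matrix glycoprotein, was at 420.4 and 167 CPM, a log2 ratio of -1.33 (-2.12 to -0.61). Adgrl4, an adhesion G-protein-coupled receptor of vessels, was at 371 and 142 CPM, a log2 ratio of -1.39 (-2.25 to -0.60). The TNF receptor gene Tnfrsf1a was at 382 and 159 CPM, a log2 ratio of -1.27 (-2.08 to -0.52), and for the cytoskeletal scaffold gene Iqgap1 the ratio was -1.59 (-2.74 to -0.58). Without the 3 cells these 5 ratios lay between -1.67 and -1.02. At equal depth Ptrf and Adgrl4 had -1.10 and -0.82, while Mmrn2, Tnfrsf1a and Iqgap1 were nearer to 0, at -0.34, -0.41 and -0.57. Other endothelial cells differed in the same direction by less, from -0.76 for Iqgap1 to -0.28 for Tnfrsf1a, and whether the members differed from them was not tested. Phlda1, a regulator of cell survival, was also lower in members, by -1.60 (-2.55 to -0.75), and by -1.44 (-2.59 to -0.44) without the 3 cells, while other endothelial cells stood at 0.40 (0.29 to 0.51). At equal depth this difference was lost, with a Phlda1 ratio of 0.0817.

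**Figure D4:**
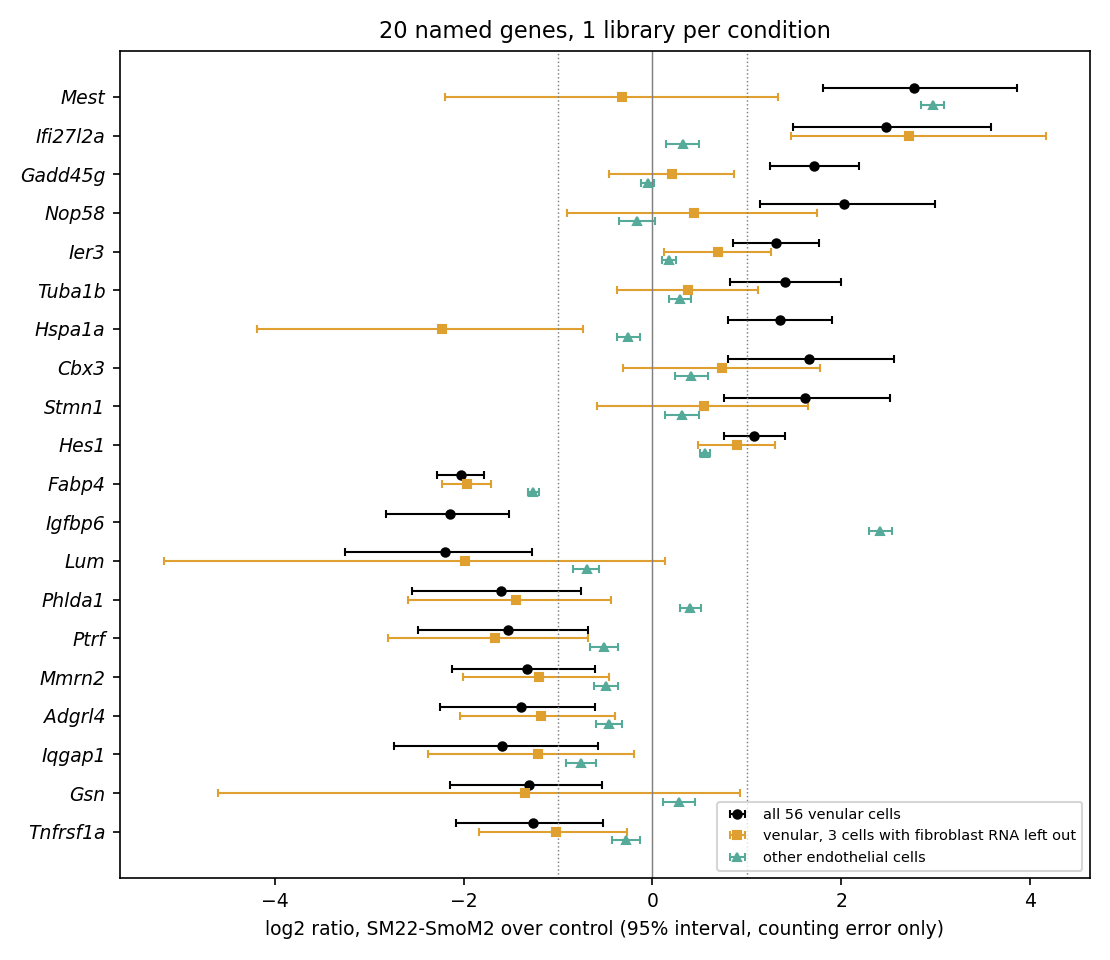
Log2 ratio of SM22-SmoM2 over control (horizontal axis) for 20 genes in all 56 venular cells, in the venular cells without the 3 cells with fibroblast RNA, and in the other endothelial cells, with 95% intervals for counting error. Fabp4, Ptrf, Mmrn2 and Adgrl4 stay below 0 in all 3 sets, while Mest and Hspa1a move from 2.77 and 1.34 in all venular cells to -0.32 and -2.22 without the 3 cells.

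By list, capillary genes summed to 8609 and 4134 CPM in control and SM22-SmoM2 members, a log2 ratio of -1.06 (-1.21 to -0.91) that was -1.02 (-1.17 to -0.86) without the 3 cells. This was mostly Fabp4, the 1 of 8 capillary genes past 2-fold, where 2.25% of all genes were higher and 3.79% lower. Venous genes outside the rule had a summed log2 ratio of -0.58 (-0.75 to -0.42), and -0.42 (-0.59 to -0.25) without the 3 cells, with 0 of 4 genes past 2-fold, a count too small to read against these shares. Emcn and Plvap, which hold most of these UMIs, had log2 ratios of -0.72 (-1.06 to -0.39) and -0.49 (-0.74 to -0.25). At equal depth the capillary sums were 8754 and 5889 CPM and the venous sums 5384 and 4859 CPM in control and SM22-SmoM2. Plvap then stood at 2152 and 2207 CPM, but only 26 of those 92 control cells and 16 of those 45 SM22-SmoM2 cells were members. Among the members without the 3 cells Plvap remained lower in SM22-SmoM2, by -0.35 (-0.61 to -0.10). Whether depth or the change of cells removed the Plvap difference was not tested. At full depth Ackr1, Lrg1 and Aplnr gave -0.04 (-0.53 to 0.44), -0.02 (-0.32 to 0.28) and -0.16 (-0.73 to 0.39), intervals that include 0. These 3 genes and Spint2 chose the cells, so their values only describe the selection.

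Cell cycle genes summed to 58 UMIs in control and 123 in SM22-SmoM2 members, or 317 and 1027 CPM. The log2 ratio of 1.70 (1.24 to 2.17) came down to 0.12 (-0.56 to 0.78) without the 3 cells with fibroblast RNA. Notch pathway genes, of which Hes1 is one, gave 0.65 (0.39 to 0.90), and 0.43 (0.12 to 0.73) without those cells. Immediate early and heat shock genes gave 0.41 (0.28 to 0.54), and 0.23 (0.08 to 0.38), with 3 of 10 genes more than 2-fold higher in all members, beside 2.25% of all genes, and 0 of 8 without the 3 cells. Fibroblast genes themselves gave -0.50 (-0.65 to -0.34), and -0.87 (-1.33 to -0.43) without those cells, with 1087 and 503 UMIs in all members. At equal depth the order was reversed. The SM22-SmoM2 venular cells then held 1185 CPM of the fibroblast list, and the control ones held 1025 CPM. Whether this equal-depth difference exceeded counting error was not tested.

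The promoter that drove the transgene and the pathway it acts on could be read in few UMIs. Tagln was at 147 CPM (97.1 to 214) in control and 226 CPM (149 to 328) in SM22-SmoM2 members, from 27 UMIs in each library, and 11 of 32 and 9 of 24 cells had a UMI of it. After thinning these shares were 31.2% and 33.3% (of 21 SM22-SmoM2 members), against 14.3% and 30.2% of Pdgfra cells. Activated cells held 155 and 95.7 CPM of Tagln and capillary-arterial cells 79.4 and 50.9 CPM. The log2 ratios of members to activated cells were -0.07 (-0.68 to 0.48) in control and 1.24 (0.58 to 1.84) in SM22-SmoM2. To capillary-arterial cells they were 0.89 (0.22 to 1.52) and 2.15 (1.12 to 3.26). In SM22-SmoM2, 37.0% of the members' Tagln UMIs lay in 1 cell. Smo, of which the transgene is a mutant form, had 8 and 2 UMIs, Ptch1 8 and 5, and the pathway readout Gli1 3 and 0. Without the 3 cells with fibroblast RNA, Smo had 5 and 0 UMIs, Ptch1 2 and 2, and Gli1 0 in both libraries. The 14 Hedgehog genes of the list summed to 30 UMIs (164 CPM) in control and 14 UMIs (117 CPM) in SM22-SmoM2 members, a log2 ratio of -0.49 (-1.52 to 0.47). Without the 3 cells the sum was 17 and 5 UMIs and the ratio -0.95 (-2.74 to 0.55). In the other endothelial cells the same sum differed by 1.07 (0.90 to 1.23), but these include the unplaced cells, of which 35 of 43 in SM22-SmoM2 had over 1% of UMIs from fibroblast genes. With all such cells left out, the control and SM22-SmoM2 sums were 86.5 and 93.7 CPM in activated cells and 89.5 and 63.6 CPM in capillary-arterial cells. Whether the members differed from them in this was not tested.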

How the data were processed

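Single cells were captured with 10x Genomics 3' v2 chemistry. The deposited values are UMI counts per gene and cell, filtered to cells by the authors, and the submitters' processing notes name bcl2fastq, Cell Ranger and mm10, while versions and annotation are not given in the sources used here. Depth was 30103855 UMIs in 2856 control cells and 17814222 in 1792 SM22-SmoM2 cells, after 22 and 10 cells with over 10% mitochondrial UMIs were left out. The deposited barcode list is that of the whole kit (737280), so barcodes shared between libraries were not counted. UMIs were summed per cell group and library and given per 1000000 UMIs (CPM) with exact Poisson intervals. Log2 ratios had exact conditional binomial intervals, and shares had Clopper-Pearson intervals. A count of 0 was set to a floor of 3 UMIs. With 1 library per condition no test was made, and a gene was called at 2-fold, with at least 20 UMIs in each library (venular against other cells) or 50 over both (SM22-SmoM2 against control). No call was made for genes of the rule, or for mitochondrial, sex-linked and ribosomal protein genes. Named were the rule's genes and Plvap, 12 genes per direction against other endothelial cells and 10 per direction for SM22-SmoM2 (by interval bounds, predicted genes left out), and up to 4 members with most UMIs of each of 30 lists, with further list members chosen after their values were seen. The members and lists were chosen with earlier results of these data known. Gene positions are from GENCODE M21 (GRCm38). Python 3.11.15, numpy 2.4.6, scipy 1.17.1, pandas 2.3.3, scanpy 1.11.5 and matplotlib 3.10.9 were used. The calculations were tested on simulated data. Filters, depth, doublets, sex and comparison cells were varied, and leaving out cells with fibroblast RNA or changing the comparison cells to 1 group was chosen after seeing the data.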

Additional observations from a re-analysis of the deposited data

Results flagged for a closer look

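In all, 4 genes named in the comparison of SM22-SmoM2 with control went in opposite directions in venular and in other endothelial cells. The difference between the cell groups was not tested. Hspa1a had a log2 ratio of 1.34 in venular cells and -0.25 in other endothelial cells, and 83.3% of its UMIs in SM22-SmoM2 members lay in 1 cell with fibroblast RNA. Igfbp6 had -2.14 in venular and 2.41 in other endothelial cells, with 98.1% of its control UMIs in 1 member. Among SM22-SmoM2 other endothelial cells, 1276 of its 1475 UMIs lay in the 43 unplaced cells, 35 of which had over 1% of UMIs from fibroblast genes, and its ratio was 1.99 (1.69 to 2.30) in activated and -0.73 (-2.10 to 0.40) in capillary-arterial cells. Gsn had -1.30 and 0.28, with 86.8% of its control UMIs in 1 member. The same unplaced cells held 291 of its 399 UMIs in SM22-SmoM2 other endothelial cells, and its ratio was 0.18 (-0.15 to 0.51) in activated and -1.86 (-3.77 to -0.45) in capillary-arterial cells. Phlda1 had -1.60 and 0.40, and in venular cells -1.44 (-2.59 to -0.44) without the cells with fibroblast RNA, but 0.0817 with cells thinned to 3000 UMIs and chosen again.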

How the results depend on the processing

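The venular shares of 5.11% and 9.30% of endothelial cells became 14.9% and 20.9% with cells thinned to 3000 UMIs (73 shallower SM22-SmoM2 cells left out). They became 3.19% and 5.81% with 3 of the 4 venular genes required. In SM22-SmoM2 the share was 5.51% among male and 15.3% among female cells. The 121 genes higher than in other endothelial cells became 1 when thinned, 520 with 3 of 4 venular genes, 71 with 6 UMIs of the endothelial genes, 370 in male and 38 in female cells, 14 with the UMI minimum doubled and 2003 without one, 26 without activated cells, 64 without cells with fibroblast RNA, 63 without unplaced cells, and 51 and 22 against activated and against capillary-arterial cells alone. The 191 lower genes became 69 when thinned, 80 in male and 86 in female cells, 289 by mean CPM per cell and 72 against capillary-arterial cells. For SM22-SmoM2 over control, the 19 higher genes became 4 when thinned (3 shared), 12 with 3 of 4 venular genes, 9 in female cells, 7 with the minimum doubled, 686 without one and 7 without cells with fibroblast RNA. The 32 lower genes became 23 when thinned, with only 2 shared, 20 with 3 of 4 venular genes, 20 with 6 endothelial UMIs, 3 in female cells, 5 and 952 with the minimum doubled or dropped and 19 without cells with fibroblast RNA.

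Among single genes for SM22-SmoM2 over control, 147 of 217 log2 ratios stayed within the interval, 48 moved and 22 changed sign. These were, when thinned, Mest -0.22, Nop58 -0.55, Tuba1b -0.86, Hspa1a -0.61, Igfbp6 0.0317 and Phlda1 0.0817. With 3 of 4 venular genes they were Nop58 -0.0486, Igfbp6 3.19, Lum 1.26 and Gsn 0.83, and with 6 endothelial UMIs Mest -0.73, Hspa1a -0.62, Igfbp6 2.73, Lum 0.38 and Gsn 0.36. In female cells they were Ifi27l2a -0.78, Nop58 -0.30, Igfbp6 1.68, Lum 0.39 and Gsn 0.44, and without cells with fibroblast RNA Mest -0.32 and Hspa1a -2.22. For venular over other endothelial cells, 575 of 714 ratios stayed, 116 moved and 23 changed sign. For 8 of these 23 the members had 0 UMIs, so that the value only restates the floor of 3 UMIs and is an upper bound, not a higher or lower level. These bounds were Fabp5 -0.82 and Rsad2 0.65 in male SM22-SmoM2 cells, Ccl21a 4.34 and Gpx3 0.65 in female control cells, Cd74 1.22 and Ccl2 1.37 in female SM22-SmoM2 cells, Cd74 1.49 without activated cells and Ccl2 0.24 without cells with fibroblast RNA, both in SM22-SmoM2. The other values follow. In male SM22-SmoM2 cells these were Angpt2 -0.84 and Cxcl12 0.0754. Without activated cells they were Ccl21a 0.0909 and Cxcl10 0.32 in control and Cxcl10 0.18 in SM22-SmoM2, and without cells with fibroblast RNA Gpx3 0.50 in SM22-SmoM2. Against capillary-arterial cells alone they were Ccl21a 0.23, Cdkn1a 0.0257, Cxcl1 0.0611, Ccl2 0.35 and Cxcl10 1.03 in control and Gpx3 1.98, Cxcl1 0.36, Ccl2 0.56 and Cxcl10 1.72 in SM22-SmoM2. This last value rests on 5 UMIs in members and 0 in capillary-arterial cells, set to the floor, and is a lower bound. The causes were not tested. No paired analysis was possible because each condition has 1 library. Depth limits genes with few UMIs in 56 shallow cells, where a ratio can shift by several fold on single UMIs.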
